A study of Mus musculus with 10 samples.

Results

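For 10116 genes of the mouse somatosensory cortex, the change in transcript level after early deletion of Nsd1 was set against the change after late deletion. Each change was the mean log2(FPKM + 1) of the conditional knockout (cKO) libraries minus that of their controls, where FPKM counts fragments per kilobase of transcript, scaled to the mapped fragments of the library. The difference of changes was the change in the Nex model minus the change in the Camk2a model, so a positive value means that the transcript was raised more, or lowered less, in the Nex model. The 10116 genes were those of 22205 single-gene names in the 2.5-month table that had the same name in the 3-month table (21312 names) and reached FPKM 1 in at least 3 libraries of the first and 2 of the second table. Another 1074 matched names passed only in the 2.5-month table and 254 only in the 3-month table, and 11196 matched names were left out in all. Just inside the limit lay Gm15417 (1.00008 FPKM in the deciding library) and Spata13 (1.00026 FPKM), and just outside it Hist1h2bg (0.99991 FPKM) and Ttll3 (0.99977 FPKM).

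RNA was sequenced from 10 libraries in 4 groups. The 2.5-month groups were Nex_Ctrl (3 libraries; replicates 1 and 2 of genotype Nsd1fl/+, replicate 3 Nsd1fl/fl) and Nex_cKO (3 libraries of genotype Nsd1Nex-cKO). The 3-month groups were Camk2a_Ctrl (2 libraries, both Nsd1fl/+) and Camk2a_cKO (2 libraries of genotype Nsd1Camk2a-cKO). All groups thus carry a floxed Nsd1 allele, 4 of the 5 controls also keep an unfloxed allele, and whether a control carries Cre or a replicate is a separate mouse is not given in the labels. P-values therefore measure the spread between these libraries, which may be technical. The models differ at once in age, driver and table, and most of their libraries also in sex. What each of these adds to a difference cannot be told apart.

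NSD1 is a histone methyltransferase that places dimethylation on lysine 36 of histone H3, a mark of broad intergenic and genic domains that recruits DNA methylation and counters the repressive mark on lysine 27. The Nex driver is Cre expressed from the Neurod6 (Nex) locus, which is active in excitatory neurons of the embryonic cortex soon after they leave the cell cycle. Camk2a drivers act in excitatory forebrain neurons that are already maturing after birth, so the title's question of establishing against maintaining neuronal identity is put by comparing the drivers.

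Genes at FPKM 1 or more numbered 12548 to 13303 per library. The Camk2a libraries held 16901717 to 20074933 recovered reads, and the depth of the Nex libraries is unknown. Nex_cKO replicate 3 stood apart, with the Y-linked Ddx3y at 16.2 FPKM against 0 in the other 5 Nex libraries and rows without a gene name holding 41.6% of its summed FPKM against 2.33% to 19.4%. In the 4 Camk2a libraries Ddx3y ranged from 10.98 to 12.35 FPKM, so sex as well as age differs between most libraries of the models. No gene called different between the models lay on X or Y, and the counts of called genes and the list medians that moved most without Nex_cKO replicate 3 are given with those results.

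The targeted gene could be read in the Camk2a model only, because the 2.5-month table joins Nsd1 with its neighbour Prelid1, and so Nsd1 is not among the 10116 genes. The joined locus had 129.9, 125.1 and 141.4 FPKM in Nex_Ctrl and 90.98, 118.1 and 105.6 FPKM in Nex_cKO libraries. Nsd1 had 5.61 and 8.87 FPKM in Camk2a_Ctrl (1686 and 3067 reads) and 4.31 and 4.99 FPKM in Camk2a_cKO libraries (1341 and 1466 reads). Both loci were lower in every cKO library than in every control of the same table, and a gene total does not show the floxed exon. Neurod6, the transcription factor whose locus drives Nex-Cre, had 33.99, 29.4 and 31.5 FPKM in Nex_Ctrl, 17.2, 22.2 and 14.6 FPKM in Nex_cKO, 23.95 and 24.4 FPKM in Camk2a_Ctrl and 24.3 and 13.9 FPKM in Camk2a_cKO libraries. Its log2 change was -0.80 (SE 0.13) under the Nex and -0.38 (SE 0.22) under the Camk2a driver, a difference of -0.42 (SE 0.28, 95% interval -1.04 to 0.20, limma adjusted p = 0.547), which did not pass the threshold. Camk2a, the kinase whose promoter gives the late driver its name, had 706, 773 and 699.6 FPKM in Nex_Ctrl, 662, 661 and 662.5 FPKM in Nex_cKO, 497 and 552 FPKM in Camk2a_Ctrl and 530.02 and 574 FPKM in Camk2a_cKO libraries, and its difference of -0.21 (SE 0.13, limma adjusted p = 0.521) did not pass either.

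Few genes changed differently enough to be called. With limma and Benjamini-Hochberg adjustment over the 10116 genes, 56 (0.554%) passed an adjusted p of 0.05, of which 39 (0.386%) had a positive and 17 (0.168%) a negative difference. The genes with a positive difference had low control levels (median of the control means 2.07 FPKM in the Nex and 1.43 FPKM in the Camk2a model, against 11.3 and 6.75 FPKM over all genes). These levels are a description, since a gene under FPKM 1 in every control of a model passed the filter only where cKO was higher. Of the 39, 38 rose in Nex_cKO, among them the signalling scaffold Card10, the matrix genes Mfap4 and Smoc2 and the neuropeptide genes Tac2 and Adcyap1. Of the genes with a negative difference 14 fell in Nex_cKO and 16 had a Camk2a change above 0, among them the potassium channel subunit gene Kcnip2 and the Notch-ligand-like gene Dlk2. The median log2 difference over the 10116 genes was -0.035 (interquartile range -0.20 to 0.12). The median SE was 0.16 and the median half-width of the unadjusted 95% interval 0.35. A call needed more than this, because p was adjusted over the 10116 genes. Differences of about 0.35 were thus not detectable for a typical gene, and the smallest called difference was 0.57 in size. An unadjusted p under 0.05 was reached by 1351 genes, the called ones included. In bulk tissue, fewer cells of a type and less RNA per cell cannot be told apart.

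**Figure D1:**
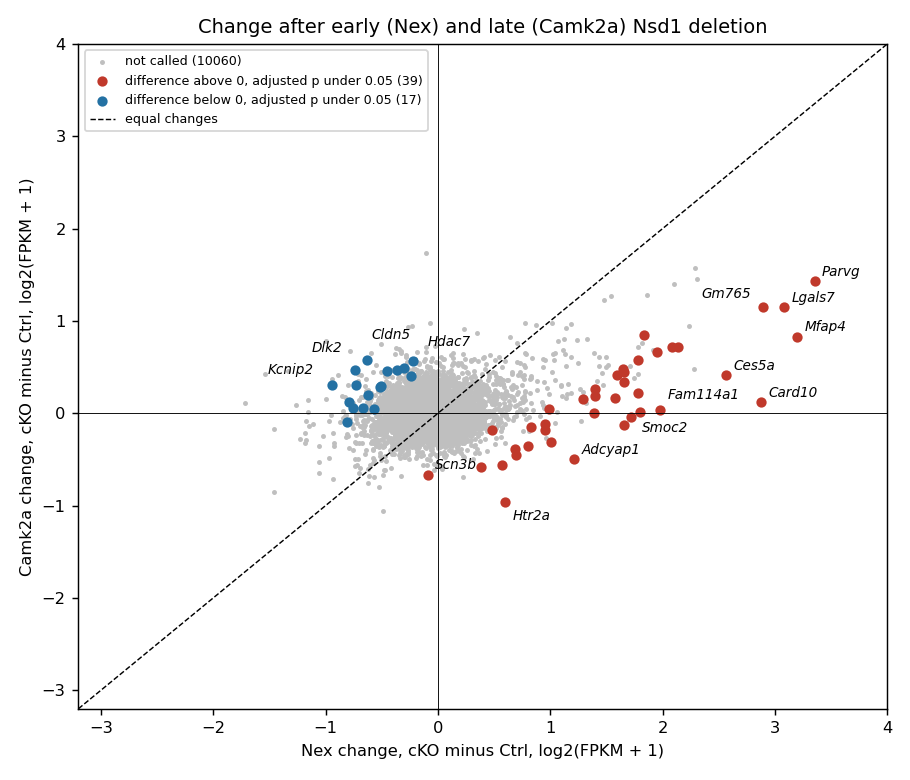
Change of each of the 10116 genes in the Nex model (x axis) against its change in the Camk2a model (y axis), both as cKO minus control in log2(FPKM + 1), with the dashed line at equal changes. The 39 genes in red lie right of the dashed line, mostly with a large x and a y near or above 0, and the 17 genes in blue lie left of zero on x and mostly above 0 on y.

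The 39 genes with a positive difference ranged from 0.57 to 2.76 in log2 difference, with a median of 1.29. The median log2 change was 1.59 under the Nex and 0.12 under the Camk2a driver. In 36 of them the Nex change was the larger in size. The Camk2a change had the same sign as the Nex change in 25 and the opposite sign in 14, and in 15 it was under 0.25 in size. The Nex change on its own was called higher in 38 of 39, where 2.49% of all 10116 genes were, and the Nex groups did not overlap in any of the 39, with cKO above the controls in 38 and below in Scn3b, where cKO lay above in 9.63% of all genes and below in 20%. These counts share the contrast that chose the genes. The Camk2a groups did not overlap in 28 of the 39, with cKO above the controls in 16 and below in 12, where 37.4% of all genes did not overlap either way, 15.1% with cKO above and 22.3% below. The Nex control mean was under FPKM 1 in 11 of the 39 and the Camk2a control mean in 13. A gene low in the Nex controls could pass the filter through the 3 Nex_cKO libraries alone and so had to be higher there, which makes the 11 a description, and the pseudocount of 1 understates the ratio of such low genes. Likewise a gene under FPKM 1 in both Camk2a controls could pass only through the Camk2a_cKO libraries and so had to be higher there. The 16 with Camk2a_cKO above the controls hold such genes, among them Lgals7, Cpxm2 and Tns4, and are a description. Card10, Glp2r and Dnah1 had several rows in the 2.5-month table, of which the highest was used.

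Promoters of Card10 and Tac2, both called with a positive difference, and of Kcnip2 and Cldn5, both called with a negative one, are shown as the DNA that precedes transcripts with very unequal changes. Each is the 250 bases before the start that RefSeq lists for the gene (assembly GRCm38.p6), 5′ to 3′ on the gene's strand, with every CG dinucleotide, the site of DNA methylation, in capitals. Of the 56 called genes, 29 of 39 with a positive and 15 of 17 with a negative difference had an entry, which is under 80% of all called genes, so a comparison of promoter composition between called and other genes is void. The Card10 window is chr15:78803043-78803292, minus strand, with 25 CG. The Tac2 window is chr10:127724228-127724477, plus strand, with 2 CG. The Kcnip2 window is chr19:45816064-45816313, minus strand, with 15 CG. The Cldn5 window is chr16:18776597-18776846, plus strand, with 12 CG. CG reads the same on both strands, and fewer than 10 are held by 61.8% of all 27025 promoters in the table and by 22.6% of those of the 7994 tested genes with an entry. The counts are descriptions of these windows.
Card10: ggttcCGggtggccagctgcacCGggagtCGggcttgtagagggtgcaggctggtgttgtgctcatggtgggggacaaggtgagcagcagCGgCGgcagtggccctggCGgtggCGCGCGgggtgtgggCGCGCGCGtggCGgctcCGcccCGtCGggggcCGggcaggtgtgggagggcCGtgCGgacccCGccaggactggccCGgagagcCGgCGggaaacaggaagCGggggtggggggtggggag
Tac2: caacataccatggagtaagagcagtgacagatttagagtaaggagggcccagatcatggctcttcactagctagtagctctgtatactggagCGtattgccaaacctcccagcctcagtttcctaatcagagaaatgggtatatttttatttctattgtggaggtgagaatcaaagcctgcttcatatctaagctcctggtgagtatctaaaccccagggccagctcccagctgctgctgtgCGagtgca
Kcnip2: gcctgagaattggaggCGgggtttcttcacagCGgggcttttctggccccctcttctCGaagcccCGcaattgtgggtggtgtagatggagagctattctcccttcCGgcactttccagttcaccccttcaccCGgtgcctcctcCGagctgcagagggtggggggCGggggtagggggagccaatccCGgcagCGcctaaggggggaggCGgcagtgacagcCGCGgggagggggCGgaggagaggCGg
Cldn5: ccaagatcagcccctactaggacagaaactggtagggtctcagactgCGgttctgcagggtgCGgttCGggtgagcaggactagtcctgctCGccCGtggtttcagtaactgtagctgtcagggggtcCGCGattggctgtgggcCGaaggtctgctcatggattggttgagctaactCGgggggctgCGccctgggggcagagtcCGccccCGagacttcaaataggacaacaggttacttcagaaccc

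Positions of genes are those of the 3-month table (GRCm38). Card10 (chr15:78775138-78803042, minus strand) encodes CARMA3, a scaffold that links surface receptors to NF-kB signalling. It had 0.956, 0.669 and 0.351 FPKM in Nex_Ctrl, 10.45, 11.1 and 11.7 FPKM in Nex_cKO, 1.103 and 0.848 FPKM in Camk2a_Ctrl and 0.896 and 1.43 FPKM in Camk2a_cKO libraries. All 3 Nex_cKO libraries lay far above the controls, and the Camk2a groups overlapped. For Card10, the log2 change was 2.88 (SE 0.14) under the Nex and 0.12 (SE 0.17) under the Camk2a driver, a difference of 2.76 (SE 0.23, 95% interval 2.25 to 3.26, limma adjusted p = 0.000803). Its Camk2a values rest on 94 and 83 reads in the controls and 79 and 119 reads in the cKO libraries. Fam114a1 (chr5:64970071-65041886, plus strand) had 1.075, 1.94 and 1.41 FPKM in Nex_Ctrl, 8.42, 9.67 and 7.92 FPKM in Nex_cKO, 1.31 and 1.39 FPKM in Camk2a_Ctrl and 1.47 and 1.34 FPKM in Camk2a_cKO libraries. It too was high in the 3 Nex_cKO libraries alone, with overlapping Camk2a groups. For Fam114a1, the log2 change was 1.98 (SE 0.14) under the Nex and 0.033 (SE 0.13) under the Camk2a driver, a difference of 1.94 (SE 0.20, 95% interval 1.498 to 2.39, limma adjusted p = 0.00155). Ces5a (chr8:93499064-93535830, minus strand), a carboxylesterase gene, had 0.243, 0.427 and 0.166 FPKM in Nex_Ctrl, 6.9002, 6.32 and 6.399 FPKM in Nex_cKO, 1.08 and 0.284 FPKM in Camk2a_Ctrl and 0.887 and 1.503 FPKM in Camk2a_cKO libraries. The Nex groups were far apart, whereas the Camk2a groups overlapped. Card10 and Ces5a were under FPKM 1 in every Nex control and so passed the filter there only through higher Nex_cKO libraries. That their Nex groups did not overlap is therefore a description. For Ces5a, the log2 change was 2.56 (SE 0.11) under the Nex and 0.41 (SE 0.24) under the Camk2a driver, a difference of 2.15 (SE 0.28, 95% interval 1.55 to 2.76, limma adjusted p = 0.00560). Card10 stayed past the threshold with each library left out in turn (adjusted p = 0.000742 to 0.0137). Fam114a1 stayed past the threshold with each library left out in turn (adjusted p = 0.00226 to 0.0151). Ces5a stayed past the threshold with each library left out in turn (adjusted p = 0.00298 to 0.0225) but lost the call with a pseudocount of 0.1.

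Mfap4, a microfibril-associated glycoprotein of the extracellular matrix, had the second largest difference. Mfap4 (chr11:61485431-61488900, plus strand) had 1.14, 0.508 and 0.369 FPKM in Nex_Ctrl, 13.7, 15.7 and 12.98 FPKM in Nex_cKO, 1.06 and 0.789 FPKM in Camk2a_Ctrl and 2.89 and 1.98 FPKM in Camk2a_cKO libraries. In both models the cKO values lay above the controls without overlap. For Mfap4, the log2 change was 3.20 (SE 0.16) under the Nex and 0.83 (SE 0.17) under the Camk2a driver, a difference of 2.37 (SE 0.26, 95% interval 1.80 to 2.95, limma adjusted p = 0.00194), and it stayed past the threshold with each library left out in turn (adjusted p = 0.000970 to 0.0225). Smoc2 (chr17:14279506-14404790, plus strand), a secreted calcium-binding matricellular protein, had 2.26, 2.35 and 2.78 FPKM in Nex_Ctrl, 9.63, 7.903 and 12.6 FPKM in Nex_cKO, 1.32 and 1.58 FPKM in Camk2a_Ctrl and 1.14 and 1.34 FPKM in Camk2a_cKO libraries. Only its Nex groups were apart. For Smoc2, the log2 change was 1.66 (SE 0.15) under the Nex and -0.13 (SE 0.14) under the Camk2a driver, a difference of 1.78 (SE 0.23, 95% interval 1.29 to 2.28, limma adjusted p = 0.00524), and it stayed past the threshold with each library left out in turn (adjusted p = 0.00264 to 0.0291). Lgals7 (chr7:28863853-28866284, plus strand), which encodes galectin-7, a lectin best known from epithelia, had 0.193, 0.523 and 0.198 FPKM in Nex_Ctrl, 8.88, 15.6 and 7.05 FPKM in Nex_cKO, 0.251 and 0 FPKM in Camk2a_Ctrl and 1.697 and 1.28 FPKM in Camk2a_cKO libraries. In Camk2a_Ctrl replicate 2 it had 0 recovered reads, a count that allows up to 3, and the cKO libraries were above the controls in both models. Lgals7 was under FPKM 1 in every control of both models and so passed the filter only through higher cKO libraries. For Lgals7, the log2 change was 3.08 (SE 0.24) under the Nex and 1.15 (SE 0.17) under the Camk2a driver, a difference of 1.93 (SE 0.36, 95% interval 1.14 to 2.72, limma adjusted p = 0.0415). Lgals7 lost the call without any 1 library other than Nex_cKO replicate 2 or Nex_cKO replicate 3 (adjusted p up to 0.248) and also with a pseudocount of 0.1. Chosen after their values were seen, Lama2, a laminin chain of basement membranes, had a difference of 1.32 (limma adjusted p = 0.0152), Cpxm2, a secreted carboxypeptidase-like protein, 1.42 (0.00823) and Crispld1, a secreted cysteine-rich protein, 1.31 (0.0463). Lama2 lost the call without Nex_Ctrl replicate 2, Camk2a_Ctrl replicate 1 or Camk2a_cKO replicate 2 (adjusted p up to 0.118), Cpxm2 lost the call without Camk2a_Ctrl replicate 1 (adjusted p = 0.0744) and also with a pseudocount of 0.1 and Crispld1 lost the call without any 1 library other than Nex_cKO replicate 2 or Camk2a_cKO replicate 1 (adjusted p up to 0.285) and also with a pseudocount of 0.1.

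**Figure D2:**
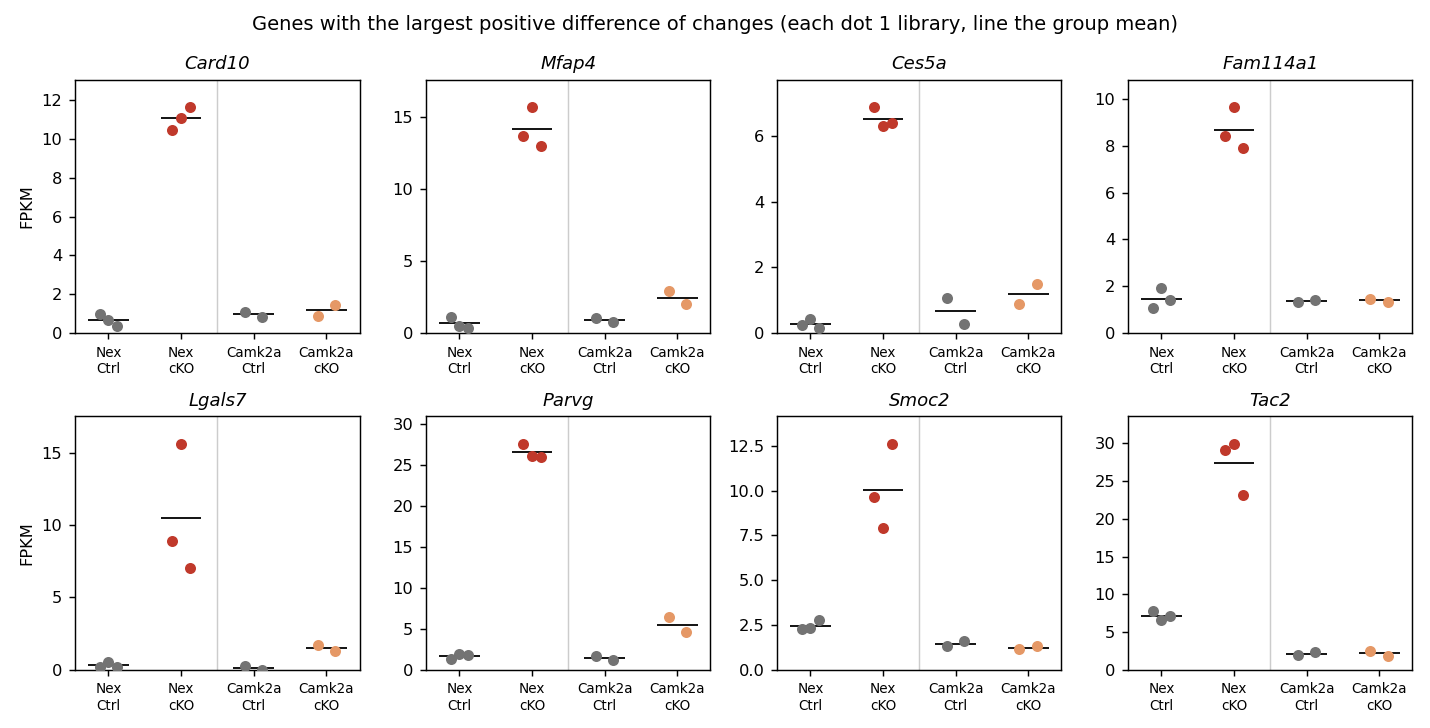
FPKM in each library (dots) and group means (lines) for the 8 genes with the largest positive difference, with control libraries in grey and cKO libraries in colour and the models separated by a vertical line. In every panel the 3 Nex_cKO dots lie above the 3 Nex_Ctrl dots, and in Mfap4, Lgals7 and Parvg the Camk2a_cKO dots also lie above the Camk2a_Ctrl dots. Groups that do not overlap in the model of the larger change, here Nex, were a condition for choosing these genes.

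Tac2 (chr10:127724478-127731768, plus strand) encodes the precursor of neurokinin B, made by some cortical interneurons. It had 7.78, 6.55 and 7.12 FPKM in Nex_Ctrl, 29.1, 29.97 and 23.1 FPKM in Nex_cKO, 1.98 and 2.31 FPKM in Camk2a_Ctrl and 2.53 and 1.86 FPKM in Camk2a_cKO libraries. The Nex_cKO libraries all lay above the Nex controls, and the Camk2a groups overlapped. For Tac2, the log2 change was 1.80 (SE 0.11) under the Nex and 0.014 (SE 0.15) under the Camk2a driver, a difference of 1.78 (SE 0.19, 95% interval 1.37 to 2.19, limma adjusted p = 0.00155), and it stayed past the threshold with each library left out in turn (adjusted p = 0.00143 to 0.0151). The 34 genes of the GABAergic neuron list had a median difference of -0.015 with 17 positive and 17 negative, and Tac2 was the only one called. Without Nex_cKO replicate 3 the median was 0.027. Their summed level ranged from 1942 to 2221 FPKM in Nex_Ctrl, 1491 to 2285 FPKM in Nex_cKO, 786 to 801 FPKM in Camk2a_Ctrl and 754 to 857 FPKM in Camk2a_cKO libraries. Adcyap1 (chr17:93199422-93205485, plus strand) encodes the neuropeptide PACAP, which acts through receptors coupled to cyclic AMP. It had 5.01, 4.52 and 5.702 FPKM in Nex_Ctrl, 11.9, 15.2 and 12.2 FPKM in Nex_cKO, 5.68 and 5.72 FPKM in Camk2a_Ctrl and 3.55 and 3.96 FPKM in Camk2a_cKO libraries. Its groups did not overlap in either model, with cKO above the controls in the Nex and below them in the Camk2a model. For Adcyap1, the log2 change was 1.21 (SE 0.11) under the Nex and -0.50 (SE 0.11) under the Camk2a driver, a difference of 1.71 (SE 0.17, 95% interval 1.34 to 2.08, limma adjusted p = 0.00155), and it stayed past the threshold with each library left out in turn (adjusted p = 0.00197 to 0.0151). Of the 30 genes of the neuropeptide list, 2 were called with a positive (0.386% of all genes) and 0 with a negative difference (0.168%), and the list's median was 0.021, or 0.13 without Nex_cKO replicate 3.

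Htr2a (chr14:74640840-74709494, plus strand) encodes the serotonin 2A receptor, the main excitatory serotonin receptor of cortical pyramidal neurons. It had 7.301, 10.1 and 8.84 FPKM in Nex_Ctrl, 12.4, 16.2 and 12.7 FPKM in Nex_cKO, 16.5 and 12.3 FPKM in Camk2a_Ctrl and 7.57 and 6.24 FPKM in Camk2a_cKO libraries. As for Adcyap1, cKO values lay above the controls in the Nex and below them in the Camk2a model. For Htr2a, the log2 change was 0.60 (SE 0.13) under the Nex and -0.96 (SE 0.16) under the Camk2a driver, a difference of 1.56 (SE 0.23, 95% interval 1.06 to 2.05, limma adjusted p = 0.0126), and it lost the call without Camk2a_Ctrl replicate 1 (adjusted p = 0.0950). Of the 38 genes in the list of GABA and monoamine receptors, Htr2a was the only one called, and the list's median difference was 0.047. Cited2 (chr10:17723218-17725674, plus strand), a partner of the coactivators CBP and p300, had 19.3, 17.2 and 21.1 FPKM in Nex_Ctrl, 30.2, 23.7 and 33.7 FPKM in Nex_cKO, 19.1 and 18.8 FPKM in Camk2a_Ctrl and 12.1 and 13.05 FPKM in Camk2a_cKO libraries. Its libraries were split in the same opposite way. For Cited2, the log2 change was 0.57 (SE 0.13) under the Nex and -0.56 (SE 0.10) under the Camk2a driver, a difference of 1.13 (SE 0.18, 95% interval 0.72 to 1.53, limma adjusted p = 0.0234), and it lost the call without any 1 library other than Nex_Ctrl replicate 3, Nex_cKO replicate 2 or Nex_cKO replicate 3 (adjusted p up to 0.146) and also with a filter of FPKM 5. Other receptors and ligands, chosen after their values were seen, were the nicotinic receptor subunit gene Chrnb3 (1.21, limma adjusted p = 0.0463), the gut peptide receptor gene Glp2r (1.37, 0.0191), Acvrl1, a receptor of the TGF-beta family (1.38, 0.00155), and the Wnt-enhancing ligand gene Rspo3 (1.15, 0.0291). Acvrl1 stayed past the threshold with each library left out in turn (adjusted p = 0.00197 to 0.0151). Glp2r lost the call without Nex_Ctrl replicate 2, Camk2a_Ctrl replicate 1 or Camk2a_cKO replicate 2 (adjusted p up to 0.146) and also with a pseudocount of 0.1. Rspo3 lost the call without any 1 library other than Nex_Ctrl replicate 3, Nex_cKO replicate 2, Nex_cKO replicate 3 or Camk2a_cKO replicate 1 (adjusted p up to 0.165). Chrnb3 lost the call without any 1 library other than Camk2a_Ctrl replicate 2 (adjusted p up to 0.204) and also with a pseudocount of 0.1.

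Parvg (chr15:84324026-84342978, plus strand) encodes gamma-parvin, an adaptor between integrins and actin. It had 1.31, 1.97 and 1.83 FPKM in Nex_Ctrl, 27.6, 26.1 and 25.9 FPKM in Nex_cKO, 1.66 and 1.13 FPKM in Camk2a_Ctrl and 6.44 and 4.54 FPKM in Camk2a_cKO libraries. Its cKO libraries were above the controls in both models. For Parvg, the log2 change was 3.36 (SE 0.11) under the Nex and 1.43 (SE 0.18) under the Camk2a driver, a difference of 1.92 (SE 0.21, 95% interval 1.46 to 2.39, limma adjusted p = 0.00194), and it stayed past the threshold with each library left out in turn (adjusted p = 0.00351 to 0.0225). Net1 (chr13:3882018-3918220, minus strand), an exchange factor for the GTPase RhoA, had 7.298, 8.44 and 8.76 FPKM in Nex_Ctrl, 10.9, 11.2 and 10.8 FPKM in Nex_cKO, 14.3 and 14.01 FPKM in Camk2a_Ctrl and 10.1 and 8.33 FPKM in Camk2a_cKO libraries. The Camk2a change was the larger in size and pointed down, while the Nex groups were apart in the other direction. For Net1, the log2 change was 0.39 (SE 0.086) under the Nex and -0.58 (SE 0.12) under the Camk2a driver, a difference of 0.96 (SE 0.14, 95% interval 0.66 to 1.27, limma adjusted p = 0.0126), and it lost the call without Camk2a_Ctrl replicate 1 (adjusted p = 0.102). Chosen after their values were seen, the myosin light chain kinase gene Mylk differed by 1.17 (limma adjusted p = 0.00600), the focal adhesion gene Tns4 by 0.99 (0.0363), the cytokinesis gene Racgap1 by 1.13 (0.0414) and the axonemal dynein gene Dnah1 by 1.18 (0.0143). Mylk lost the call without Camk2a_Ctrl replicate 1 (adjusted p = 0.0622). Dnah1 lost the call without Camk2a_Ctrl replicate 1 or Camk2a_cKO replicate 2 (adjusted p up to 0.118) and also with a pseudocount of 0.1. Racgap1 lost the call without any 1 library other than Nex_cKO replicate 1 or Nex_cKO replicate 2 (adjusted p up to 0.202) and also with a pseudocount of 0.1. Tns4 lost the call without any 1 library other than Nex_cKO replicate 2 (adjusted p up to 0.146) and also with a pseudocount of 0.1. Gm765, which the rule for named genes leaves out and which was chosen after its values were seen, had 4.82, 5.32 and 5.09 FPKM in Nex_Ctrl, 41.04, 41.5 and 50.4 FPKM in Nex_cKO, 3.44 and 2.78 FPKM in Camk2a_Ctrl and 9.67 and 6.704 FPKM in Camk2a_cKO libraries, with a difference of 1.75 (limma adjusted p = 0.00223), and its cKO values lay above the controls in both models. It stayed past the threshold with each library left out in turn (adjusted p = 0.00285 to 0.0249).

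Hippocampal markers, ion channels and a marker of reactive astrocytes supplied the remaining named genes of positive difference. Of the 13 genes of the hippocampal list 2 were called, where 0.554% of all genes were, and the list's median difference was 0.056, against -0.035 over all genes. Cpne7 (chr8:123117374-123135182, plus strand), a calcium-dependent membrane-binding copine, had 4.55, 4.16 and 5.59 FPKM in Nex_Ctrl, 11.9, 14.3 and 13.02 FPKM in Nex_cKO, 1.67 and 1.33 FPKM in Camk2a_Ctrl and 1.62 and 1.93 FPKM in Camk2a_cKO libraries. Cpne7 was higher in the Nex_cKO libraries alone. Its log2 changes were 1.29 against 0.15, a difference of 1.14 (SE 0.18, limma adjusted p = 0.0191). Fibcd1 (chr2:31813290-31846005, minus strand), a marker of CA1 pyramidal neurons, had 2.44, 2.025 and 2.19 FPKM in Nex_Ctrl, 4.145, 4.55 and 3.89 FPKM in Nex_cKO, 2.36 and 2.86 FPKM in Camk2a_Ctrl and 1.81 and 1.703 FPKM in Camk2a_cKO libraries. Its groups were apart in opposite directions in the models. Its log2 changes were 0.69 against -0.39, a difference of 1.08 (SE 0.16, limma adjusted p = 0.0137). Cpne7 lost the call without Nex_Ctrl replicate 1, Nex_Ctrl replicate 2, Camk2a_Ctrl replicate 1 or Camk2a_cKO replicate 1 (adjusted p up to 0.146) and also with a pseudocount of 0.1. Fibcd1 lost the call without Camk2a_Ctrl replicate 2 (adjusted p = 0.0573). Without Nex_cKO replicate 3 the median of the hippocampal list was -0.0016.

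Kcnj16 (chr11:110968033-111027968, plus strand), an inward rectifier potassium channel subunit of glia, had 7.59, 7.58 and 6.84 FPKM in Nex_Ctrl, 10.2, 11.1 and 10.6 FPKM in Nex_cKO, 9.07 and 8.94 FPKM in Camk2a_Ctrl and 7.85 and 7.84 FPKM in Camk2a_cKO libraries. The cKO libraries were higher in the Nex and lower in the Camk2a model without overlap. For Kcnj16, the log2 changes were 0.48 against -0.18, a difference of 0.66 (SE 0.12, limma adjusted p = 0.0363). Scn3b (chr9:40269217-40291618, plus strand), an auxiliary subunit of sodium channels, had 13.4, 13.6 and 13.3 FPKM in Nex_Ctrl, 12.3, 12.6 and 12.8 FPKM in Nex_cKO, 13.5 and 13.8 FPKM in Camk2a_Ctrl and 7.98 and 8.53 FPKM in Camk2a_cKO libraries. The Camk2a_cKO values lay well below both Camk2a controls, and the Nex groups were close together. For Scn3b, the log2 changes were -0.090 against -0.66, a difference of 0.57 (SE 0.11, limma adjusted p = 0.0390). Of 31 genes for sodium and calcium channels Scn3b was the only one called, and the list's median difference was -0.025. Kcnj16 lost the call without any 1 library other than Nex_cKO replicate 2 or Nex_cKO replicate 3 (adjusted p up to 0.202) and also with a filter of FPKM 5. Scn3b lost the call without any 1 library other than Nex_cKO replicate 2 or Nex_cKO replicate 3 (adjusted p up to 0.202) and also with a filter of FPKM 5. Serpina3n (chr12:104406729-104414329, plus strand), a serine protease inhibitor raised in reactive astrocytes, had 3.52, 4.95 and 5.23 FPKM in Nex_Ctrl, 15.6, 15.65 and 15.2 FPKM in Nex_cKO, 8.81 and 6.13 FPKM in Camk2a_Ctrl and 9.91 and 7.12 FPKM in Camk2a_cKO libraries. Its Nex_cKO libraries all lay above the Nex controls, and the Camk2a groups overlapped. For Serpina3n, the log2 changes were 1.58 against 0.17, a difference of 1.41 (SE 0.24, limma adjusted p = 0.0315). Serpina3n lost the call without Nex_Ctrl replicate 1, Nex_Ctrl replicate 2, Nex_cKO replicate 1, Camk2a_Ctrl replicate 1 or Camk2a_cKO replicate 2 (adjusted p up to 0.190) and also with a filter of FPKM 5. It belongs to a cluster of near-identical genes, so its counts are uncertain. Of the 12 genes of the reactive astrocyte list 8 had a positive difference, and the median was 0.20, with -0.065 to 0.30 when 1 library was left out. The list's summed level was 117 to 132 FPKM in Nex_Ctrl, 148 to 165 FPKM in Nex_cKO, 74.0 to 81.1 FPKM in Camk2a_Ctrl and 72.4 to 88.7 FPKM in Camk2a_cKO libraries, and its part in the Serpina3n result was not tested.

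The 17 genes with a negative difference ranged from -1.25 to -0.61, with a median of -0.81. The median log2 change was -0.62 under the Nex and 0.31 under the Camk2a driver. In 16 of the 17 the changes had opposite signs, against 49.98% of all 10116 genes, and in 9 both changes were at least 0.25 in size. On its own, the Nex change was called lower in 14 of them, where 3.84% of all genes were. The Nex groups did not overlap in 17, with cKO below the controls (20% of all genes), and the Camk2a groups in 13, with cKO above (15.1% of all genes), but these counts share the contrast that chose the genes. None of the 17 had a control mean under FPKM 1 in either model. In the Nex model the filter fixed this. With cKO below the controls without overlap, the 3 libraries needed at FPKM 1 had to include every control.

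Kcnip2 (chr19:45791839-45816061, minus strand) encodes KChIP2, a calcium-sensing subunit of Kv4 potassium channels that carry the fast transient current of dendrites. It had 92.9, 87.5 and 92.1 FPKM in Nex_Ctrl, 54.4, 45.5 and 41.5 FPKM in Nex_cKO, 36.7 and 39.8 FPKM in Camk2a_Ctrl and 52.7 and 42.96 FPKM in Camk2a_cKO libraries. The Nex_cKO libraries all lay below the Nex controls, and the Camk2a_cKO libraries both lay above the Camk2a controls. For Kcnip2, the log2 change was -0.94 (SE 0.10) under the Nex and 0.31 (SE 0.12) under the Camk2a driver, a difference of -1.25 (SE 0.17, 95% interval -1.61 to -0.89, limma adjusted p = 0.00628), and it lost the call without Camk2a_Ctrl replicate 1 (adjusted p = 0.0704). Of 59 genes for potassium channels 1 was called in each direction, and the list's median difference was -0.070, with 39 genes below 0. Dlk2 (chr17:46297421-46303271, plus strand) encodes a delta-like membrane protein related to the Notch ligands. It had 28.1, 22.9 and 27.6 FPKM in Nex_Ctrl, 14.2, 16.8 and 14.9 FPKM in Nex_cKO, 7.399 and 7.59 FPKM in Camk2a_Ctrl and 11.2 and 10.3 FPKM in Camk2a_cKO libraries. Its groups were apart in both models, with cKO below the controls in the Nex and above them in the Camk2a model. For Dlk2, the log2 change was -0.74 (SE 0.10) under the Nex and 0.47 (SE 0.10) under the Camk2a driver, a difference of -1.21 (SE 0.15, 95% interval -1.53 to -0.88, limma adjusted p = 0.00431), and it stayed past the threshold with each library left out in turn (adjusted p = 0.00361 to 0.0400).

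**Figure D3:**
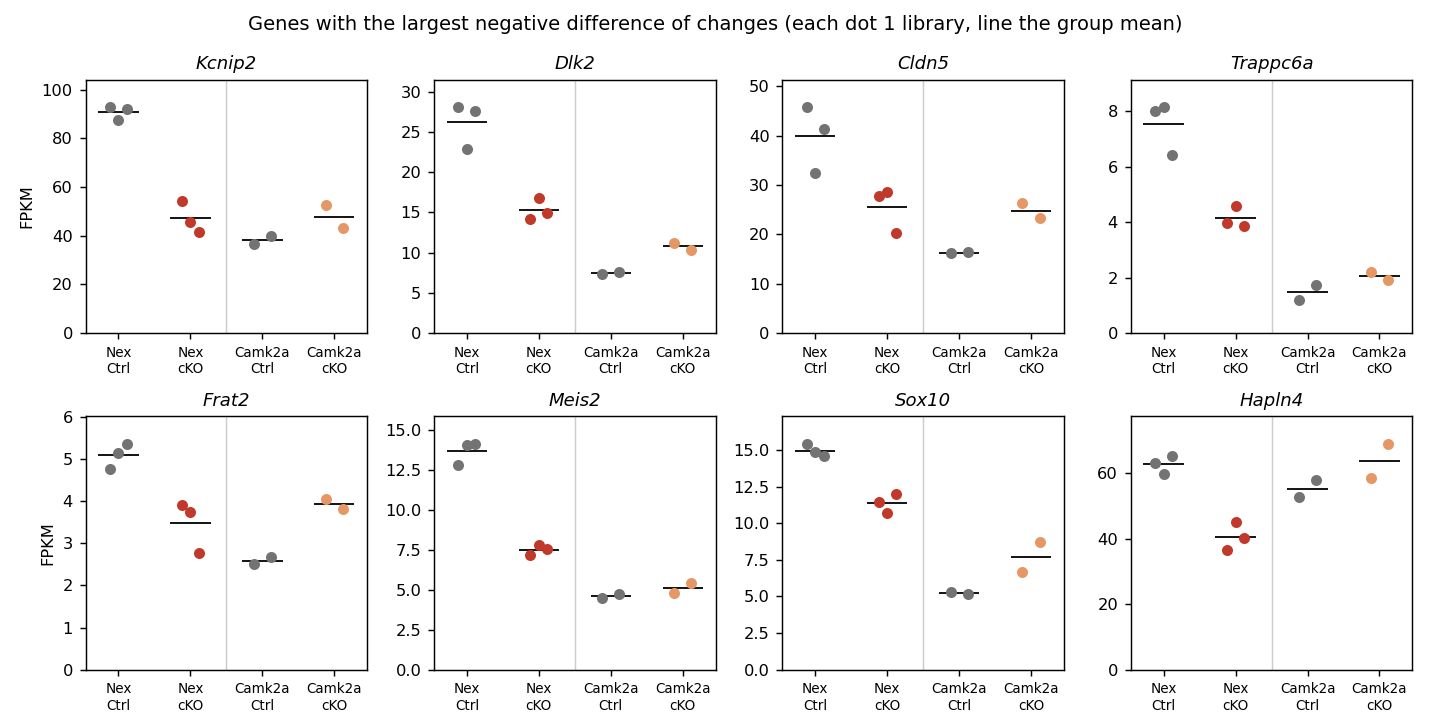
FPKM in each library (dots) and group means (lines) for the 8 genes with the largest negative difference, drawn as for the genes of positive difference. In every panel the 3 Nex_cKO dots lie below the 3 Nex_Ctrl dots and the Camk2a_cKO dots lie above the Camk2a_Ctrl dots. Groups that do not overlap in the model of the larger change were a condition for choosing these genes.

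Meis2 (chr2:115863064-116065839, minus strand), a homeobox transcription factor, had 12.8, 14.1 and 14.2 FPKM in Nex_Ctrl, 7.17, 7.78 and 7.55 FPKM in Nex_cKO, 4.503 and 4.76 FPKM in Camk2a_Ctrl and 4.8 and 5.46 FPKM in Camk2a_cKO libraries. The Nex_cKO values were below all Nex controls by a wide gap, and the Camk2a groups were adjacent. For Meis2, the log2 change was -0.79 (SE 0.079) under the Nex and 0.12 (SE 0.11) under the Camk2a driver, a difference of -0.91 (SE 0.13, 95% interval -1.19 to -0.63, limma adjusted p = 0.00931), and it lost the call without Camk2a_Ctrl replicate 1 (adjusted p = 0.0850). Hdac7 (chr15:97792664-97844502, minus strand), a class IIa histone deacetylase, had 10.8, 10.1 and 10.004 FPKM in Nex_Ctrl, 8.07, 8.97 and 9.14 FPKM in Nex_cKO, 1.996 and 2.37 FPKM in Camk2a_Ctrl and 3.88 and 3.56 FPKM in Camk2a_cKO libraries. It was lower in Nex_cKO by a small margin and higher in both Camk2a_cKO libraries. For Hdac7, the log2 changes were -0.22 against 0.57, a difference of -0.79 (SE 0.14, limma adjusted p = 0.0315). Frat2 (chr19:41845972-41848132, minus strand), which binds the kinase GSK3 in Wnt signalling, had 4.75, 5.14 and 5.36 FPKM in Nex_Ctrl, 3.91, 3.73 and 2.78 FPKM in Nex_cKO, 2.501 and 2.67 FPKM in Camk2a_Ctrl and 4.06 and 3.798 FPKM in Camk2a_cKO libraries. The groups of each model were apart in opposite directions. For Frat2, the log2 changes were -0.45 against 0.46, a difference of -0.91 (SE 0.17, limma adjusted p = 0.0449). Hdac7 lost the call without any 1 library other than Nex_cKO replicate 2, Nex_cKO replicate 3 or Camk2a_Ctrl replicate 2 (adjusted p up to 0.202). Frat2 lost the call without any 1 library other than Nex_cKO replicate 2 or Nex_cKO replicate 3 (adjusted p up to 0.246) and also with a pseudocount of 0.1. Id3, an inhibitor of basic helix-loop-helix factors chosen after its values were seen, differed by -0.80 (limma adjusted p = 0.0467) and lost the call without any 1 of the 10 libraries (adjusted p = 0.0511 to 0.286) and also with a pseudocount of 0.1, a filter of FPKM 5, rescaling by the median ratio, quantile normalization or no intensity trend.

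Trappc6a (chr7:19508395-19516145, plus strand), a subunit of the TRAPP tethering complex, had 8.01, 8.16 and 6.43 FPKM in Nex_Ctrl, 3.95, 4.59 and 3.86 FPKM in Nex_cKO, 1.21 and 1.75 FPKM in Camk2a_Ctrl and 2.19 and 1.91 FPKM in Camk2a_cKO libraries. Its cKO values lay below the controls in the Nex and above them in the Camk2a model. For Trappc6a, the log2 changes were -0.73 against 0.31, a difference of -1.04 (SE 0.19, limma adjusted p = 0.0390). Hapln4 (chr8:70083457-70090862, plus strand), a link protein of perineuronal nets, had 63.2, 59.9 and 65.3 FPKM in Nex_Ctrl, 36.5, 45.04 and 40.4 FPKM in Nex_cKO, 52.7 and 57.8 FPKM in Camk2a_Ctrl and 58.5 and 69.1 FPKM in Camk2a_cKO libraries. The Nex_cKO libraries all lay below the Nex controls, and the Camk2a_cKO libraries above the Camk2a controls. For Hapln4, the log2 changes were -0.62 against 0.20, a difference of -0.82 (SE 0.15, limma adjusted p = 0.0363). Iglon5 (chr7:43472904-43490075, minus strand), a neuronal adhesion molecule, had 18.6, 18.1 and 17.9 FPKM in Nex_Ctrl, 14.1, 16.9 and 14.96 FPKM in Nex_cKO, 9.44 and 9.59 FPKM in Camk2a_Ctrl and 12.4 and 13.5 FPKM in Camk2a_cKO libraries. It was one of the genes whose Camk2a change was the larger in size. For Iglon5, the log2 changes were -0.24 against 0.41, a difference of -0.65 (SE 0.13, limma adjusted p = 0.0491). Mfsd12 (chr10:81357491-81366225, plus strand), a lysosomal transporter, had 15.03, 14.4 and 13.2 FPKM in Nex_Ctrl, 11.3, 11.4 and 11.3 FPKM in Nex_cKO, 7.099 and 7.27 FPKM in Camk2a_Ctrl and 9.61 and 11.5 FPKM in Camk2a_cKO libraries. Its Camk2a change was likewise the larger. For Mfsd12, the log2 changes were -0.30 against 0.49, a difference of -0.80 (SE 0.13, limma adjusted p = 0.0234). Trappc6a lost the call without any 1 library other than Nex_Ctrl replicate 3, Nex_cKO replicate 2 or Camk2a_Ctrl replicate 2 (adjusted p up to 0.223) and also with a pseudocount of 0.1. Hapln4 lost the call without any 1 library other than Nex_cKO replicate 2, Nex_cKO replicate 3 or Camk2a_cKO replicate 1 (adjusted p up to 0.223) and also with a filter of FPKM 5 or no intensity trend. Iglon5 lost the call without any 1 library other than Nex_cKO replicate 2 (adjusted p up to 0.252) and also with a pseudocount of 0.1, a filter of FPKM 5, rescaling by the median ratio, quantile normalization or no intensity trend. Mfsd12 lost the call without any 1 library other than Nex_Ctrl replicate 3, Nex_cKO replicate 2, Nex_cKO replicate 3 or Camk2a_cKO replicate 1 (adjusted p up to 0.153). The neurofilament gene Ina and the kinase gene Prkca, chosen after their values were seen, fell in Nex_cKO by 0.57 and 0.66 on the log2 scale, with Camk2a changes of 0.043 and 0.063 and differences of -0.61 (limma adjusted p = 0.0390) and -0.73 (0.0328). Ina lost the call without any 1 library other than Nex_cKO replicate 2 or Nex_cKO replicate 3 (adjusted p up to 0.202) and also with a filter of FPKM 5 or no intensity trend. Prkca lost the call without any 1 library other than Nex_cKO replicate 2, Nex_cKO replicate 3 or Camk2a_cKO replicate 1 (adjusted p up to 0.208) and also with a filter of FPKM 5.

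Markers of endothelium and of the oligodendrocyte lineage were also among the genes of negative difference. Cldn5 (chr16:18776847-18778262, plus strand), the tight junction protein of brain endothelium, had 45.8, 32.4 and 41.4 FPKM in Nex_Ctrl, 27.6, 28.5 and 20.3 FPKM in Nex_cKO, 16.2 and 16.4 FPKM in Camk2a_Ctrl and 26.3 and 23.3 FPKM in Camk2a_cKO libraries. It was lower in every Nex_cKO than in every Nex_Ctrl library and higher in both Camk2a_cKO libraries than in the Camk2a controls. For Cldn5, the log2 change was -0.63 (SE 0.15) under the Nex and 0.57 (SE 0.10) under the Camk2a driver, a difference of -1.20 (SE 0.22, 95% interval -1.69 to -0.72, limma adjusted p = 0.0390). Cldn5 lost the call without any 1 library other than Nex_Ctrl replicate 2, Nex_cKO replicate 2 or Nex_cKO replicate 3 (adjusted p up to 0.204) and also with a pseudocount of 0.1, a filter of FPKM 5 or no intensity trend. Of the 28 genes of the endothelial and mural list 23 had a negative difference, the median was -0.25 (-0.32 to -0.18 with 1 library left out) and Cldn5 was the only one called. The summed level of the list was 313 to 380 FPKM in Nex_Ctrl, 251 to 301 FPKM in Nex_cKO, 269.9 to 274 FPKM in Camk2a_Ctrl and 255 to 294 FPKM in Camk2a_cKO libraries. Sox10 (chr15:79154908-79165240, minus strand), a transcription factor of the oligodendrocyte lineage, had 15.4, 14.8 and 14.6 FPKM in Nex_Ctrl, 11.4, 10.7 and 11.996 FPKM in Nex_cKO, 5.296 and 5.17 FPKM in Camk2a_Ctrl and 6.65 and 8.73 FPKM in Camk2a_cKO libraries. The Nex_cKO values lay below and the Camk2a_cKO values above their controls. For Sox10, the log2 change was -0.37 (SE 0.075) under the Nex and 0.47 (SE 0.14) under the Camk2a driver, a difference of -0.83 (SE 0.15, 95% interval -1.16 to -0.51, limma adjusted p = 0.0361). Sox10 lost the call without any 1 library other than Nex_cKO replicate 2, Nex_cKO replicate 3 or Camk2a_cKO replicate 1 (adjusted p up to 0.185) and also with a filter of FPKM 5. Of the 26 genes of the oligodendrocyte list 23 had a negative difference, the median was -0.27 (-0.32 to -0.22 with 1 library left out) and Sox10 was the only one called. That list summed to 1752 to 1896 FPKM in Nex_Ctrl, 1391 to 1646 FPKM in Nex_cKO, 761 to 799 FPKM in Camk2a_Ctrl and 787 to 803 FPKM in Camk2a_cKO libraries. No gene of either list was at 0 in all libraries, and the part of cell numbers in these results was not tested.

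The other lists held no called gene. The median difference of 26 microglial genes was 0.21, with 22 above 0 and none called, and ranged from 0.069 to 0.36 with 1 library left out. The microglial sum was 359 to 434 FPKM in Nex_Ctrl, 423 to 486 FPKM in Nex_cKO, 241 to 262 FPKM in Camk2a_Ctrl and 229.5 to 267 FPKM in Camk2a_cKO libraries. In the respiratory chain list 56 of 62 genes had a negative difference, with a median of -0.23 (-0.091 without Nex_cKO replicate 3) that ranged from -0.34 to -0.077 with 1 library left out, and none was called. Layer 6 and subplate neurons (23 genes) had a median of -0.054, layer 5 projection neurons (23 genes) 0.030, upper layer neurons (26 genes) -0.039 and area patterning factors (27 genes) 0.0079, with no gene called in any of them. These medians moved with single libraries. The layer 6 and subplate median ran from -0.24 without Nex_cKO replicate 3 to -0.026 without Camk2a_Ctrl replicate 2. With 1 library left out the layer 5 median ranged from -0.082 to 0.11, the latter without Nex_cKO replicate 3, the upper layer median from -0.24 to 0.092 and the area patterning median from -0.027, without Nex_cKO replicate 3, to 0.087. With the Nex model fitted on its own, where 3.84% of all genes were lower, 8 of 23 layer 6 and subplate genes, 2 of 23 layer 5 genes, 4 of 26 upper layer genes, 5 of 27 area patterning genes and 11 of 59 potassium channel genes were lower. In the same order, 0, 0, 4, 3 and 2 genes of these lists were higher, where 2.49% of all genes were. Glutamatergic neuron genes (24) had a median of -0.14. The 18 genes of H3K36 and H3K27 methylation had a median of 0.049 and the 13 of DNA methylation -0.048 (-0.12 without Nex_cKO replicate 3), again with none called. Developmental transcription factors had 105 matched names of which 10 were measured in both tables, and their median was -0.26.

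Among the remaining lists the medians were 0.14 for 15 striatal and thalamic genes, -0.033 for 23 astrocyte genes, -0.048 for 43 immediate early genes, 0.017 for 28 glutamate receptor genes, -0.037 for 64 axon guidance and adhesion genes and -0.025 for 50 cytosolic ribosomal proteins. They were 0.16 for 8 clustered protocadherins, -0.19 for 11 interferon and antigen presentation genes, -0.25 for 5 choroid plexus and meningeal genes and -0.22 for 2 genes of red blood cells. Without Nex_cKO replicate 3 the median was -0.24 for the immediate early genes, 0.040 for the ribosomal proteins, -0.18 for the choroid plexus and meningeal genes and -0.11 for the red blood cell genes. The medians of the GABAergic, astrocyte, sodium and calcium channel and ribosomal lists turned positive with rescaling by the median ratio or with quantile normalization, and those of the immediate early and axon guidance lists with quantile normalization. Over all 10116 genes 4456 differences were positive and 5660 negative.

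**Figure D4:**
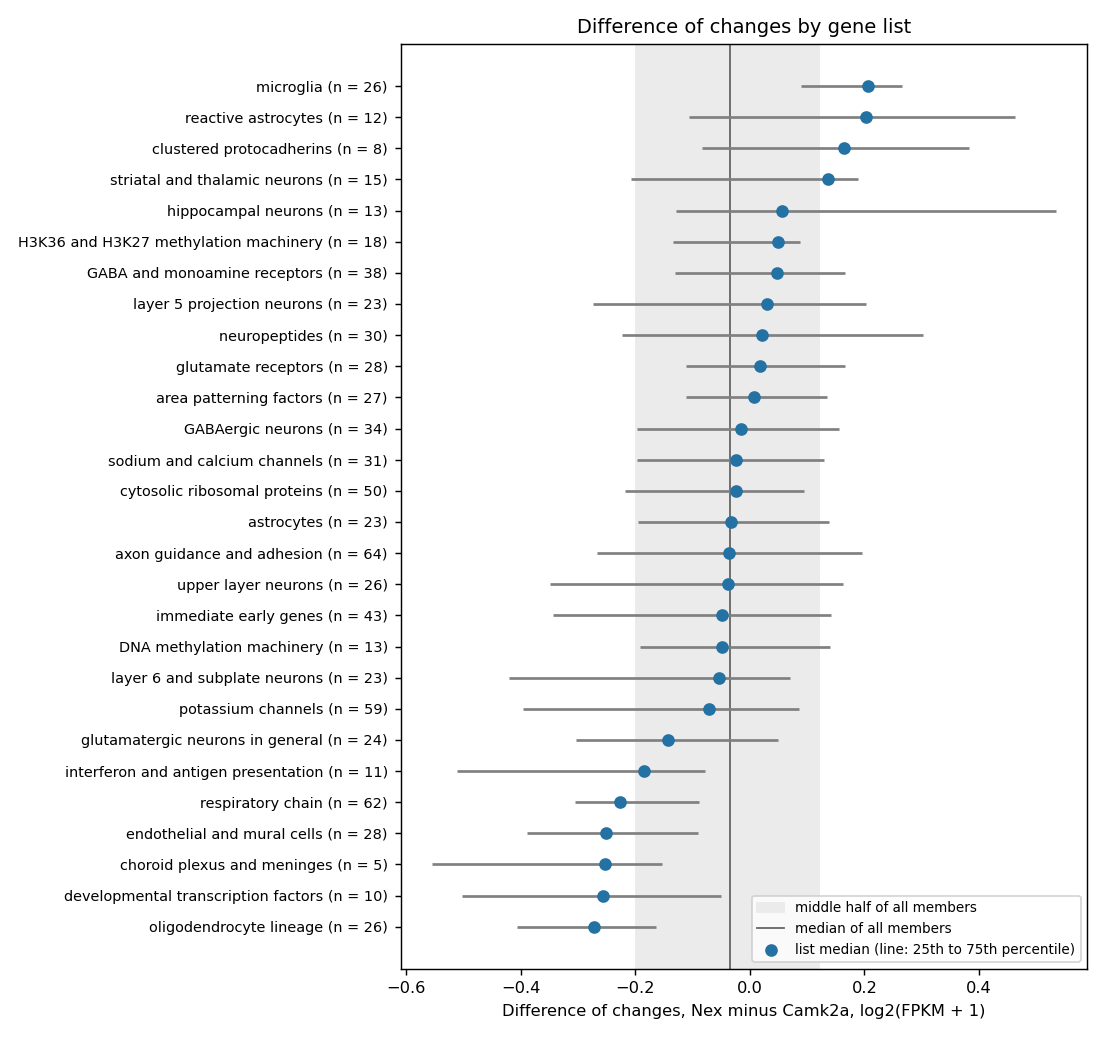
Median difference of changes (points) with the interquartile range (lines) for each gene list with at least 5 measured members, against the median and the interquartile range of all 10116 genes (grey). The microglial list (median 0.21) and the reactive astrocyte list (median 0.20) lie furthest right, and the oligodendrocyte list (median -0.27) lies furthest left.

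Hardly any change was called in the Camk2a model on its own. With limma 1 gene of 10116 (0.00989%) passed the adjusted threshold, and 682 had an unadjusted p under 0.05. In the Nex model 640 genes (6.33%) passed, 252 higher and 388 lower. Of the 252 genes higher in Nex_cKO, 195 (77.4%) had a Camk2a change above 0, against 45.6% of all genes. Their median change was 0.74 in the Nex and 0.19 in the Camk2a model. Of these 252, 38 were also called different between the models, where 0.554% of all genes were. The Nex change is part of that difference, so the overlap is a description. With 1 Camk2a library left out, the same-sign share was 69.8% to 79.0% and the Camk2a median 0.15 to 0.25. A gene under FPKM 1 in both Camk2a controls passed the filter only through higher Camk2a_cKO libraries, so the filter set its sign. Some of the 195 are such genes, among them Lgals7, Tns4 and Nhlh1, and their part in the share was not counted. Of the 388 genes lower in Nex_cKO, 240 (61.9%) had a Camk2a change below 0, against 54.4% of all genes. Their median change was -0.46 in the Nex and -0.058 in the Camk2a model. Of these 388, 14 were also called different between the models, against the same 0.554% of all genes and likewise as a description. With 1 Camk2a library left out, the share was 56.2% to 67.8% and the Camk2a median -0.094 to -0.034. Across all genes the Pearson correlation of the changes was 0.23 and the Spearman correlation 0.014, a description over genes that share libraries.

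Among the genes that did not pass in the difference, those with the largest shared change were chosen for groups that did not overlap in either model. The lack of overlap is therefore a description, and in the genes named here cKO lay above the controls. Asb2, Nhlh1 and Avp were under FPKM 1 in both Camk2a controls. They passed the filter there only through the Camk2a_cKO libraries, which had to be higher. For Nhlh1 and Avp the same held in the Nex model. Asb2 (chr12:103321142-103356001, minus strand), a subunit of a ubiquitin ligase, had 1.27, 1.35 and 1.78 FPKM in Nex_Ctrl, 10.4, 12.6 and 10.6 FPKM in Nex_cKO, 0.837 and 0.971 FPKM in Camk2a_Ctrl and 4.09 and 4.35 FPKM in Camk2a_cKO libraries. The cKO values were several times the control values in both models. Its log2 changes were 2.31 against 1.46, a difference of 0.85 (SE 0.17, limma adjusted p = 0.0614), and it was the gene called in the Camk2a model on its own (limma adjusted p = 0.0314). Nhlh1 (chr1:172052292-172057573, minus strand), a basic helix-loop-helix factor of developing neurons, had 0.387, 0.723 and 0.318 FPKM in Nex_Ctrl, 6.41, 8.47 and 4.21 FPKM in Nex_cKO, 0.165 and 0.246 FPKM in Camk2a_Ctrl and 3.08 and 2.17 FPKM in Camk2a_cKO libraries. It was under FPKM 1 in all 5 controls. Its log2 changes were 2.29 against 1.58, a difference of 0.71 (SE 0.31, limma adjusted p = 0.366). Avp (chr2:130580620-130582554, minus strand), the vasopressin precursor, had 0.973, 0 and 0 FPKM in Nex_Ctrl, 1.91, 9.34 and 4.17 FPKM in Nex_cKO, 0 and 0.263 FPKM in Camk2a_Ctrl and 2.34 and 1.65 FPKM in Camk2a_cKO libraries. It was listed at 0 in 3 of the 5 controls and varied widely among cKO libraries. Its log2 changes were 2.10 against 1.40, a difference of 0.70 (SE 0.61, limma adjusted p = 0.652). A p that misses the threshold does not show that the changes were equal, and the 95% interval of the Avp difference was -0.65 to 2.04.

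The calls depended on single libraries. Of the 56 called genes 12 passed with each library left out in turn, 11 of positive difference (Card10, Mfap4, Ces5a, Fam114a1, Parvg, Smoc2, Tac2, Gm765, Adcyap1, Vwa5b1 and Acvrl1) and 1 of negative difference (Dlk2). All 56 kept their direction in each of those fits. Counts of called genes ran from 12 positive and 1 negative without Camk2a_Ctrl replicate 1 to 48 positive and 48 negative without Nex_cKO replicate 2. Without Nex_cKO replicate 3, the library that stood apart, 42 positive and 21 negative differences were called, and 48 of the 56 genes were among them.

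**Figure D5:**
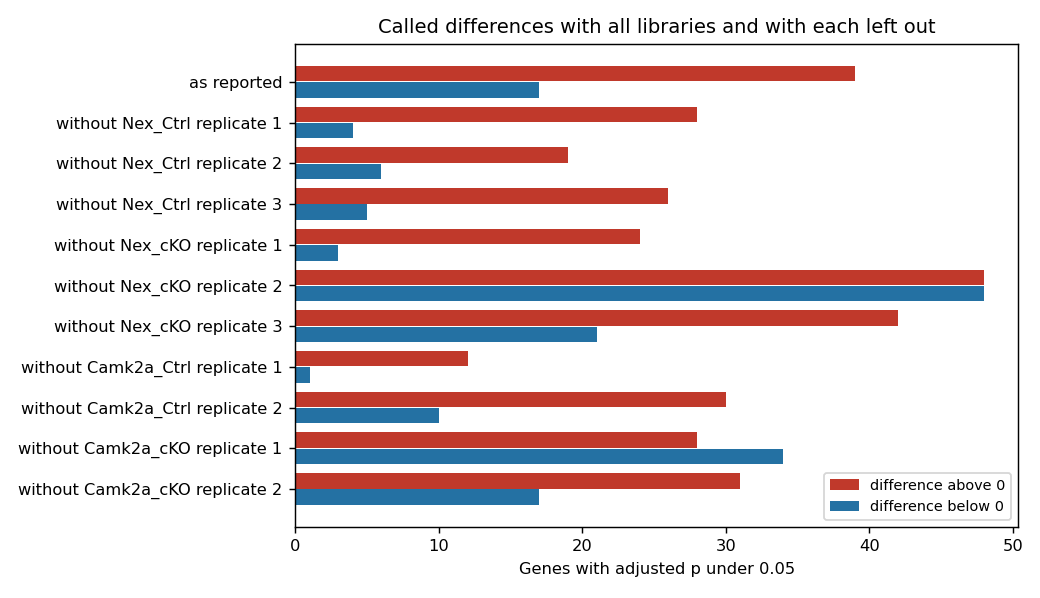
Number of genes with adjusted p under 0.05 for the difference of changes (x axis), above 0 in red and below 0 in blue, with all libraries (top) and with each library left out. The bars are shortest without Camk2a_Ctrl replicate 1 (12 and 1) and longest without Nex_cKO replicate 2 (48 and 48).

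The filter set which genes could be called. Without it 15308 genes were tested, and 229 positive and 49 negative differences passed. Of the 229, 49 were among the 10116 genes, 128 reached the limit in the 2.5-month table only and 52 in neither, so 128 and 52 of them did not reach FPKM 1 in 2 Camk2a libraries. Of the 49 negative ones 39 were among the 10116 genes.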

How the data were processed

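RNA-seq of somatosensory cortex was deposited by the authors as FPKM values in 2 tables, 1 per model; per the submitters' processing notes the tools included STAR, Cufflinks 2.2.1, cutadapt and DESeq2, with no role given, and the builds were mm10 and GRCm38. The tables used different gene models (29610 and 54532 rows) and were normalized apart, so each change was taken within its table. Unnamed and joined rows were not used, and of several rows of a name the highest was kept. FPKM times length was a whole multiple of 1 step per library in the 3-month table (100% of values within 0.1), which gave reads per gene, used for depth only.

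Values were set to log2(FPKM + 1) and fitted with limma 3.58.1 in R 4.3.3 as 4 group means over 10 libraries, with an intensity trend, two-sided, Benjamini-Hochberg adjustment over 10116 genes and a threshold of 0.05. Single changes were fitted within their table. The fit was tested on simulated data. "Rose", "fell" and "called" stand for adjusted p under 0.05.

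The members, the 29 gene lists and the rule for named genes were chosen with earlier results of these data known. The rule took Nsd1, Neurod6 and Camk2a, the 8 largest called differences in each direction with groups that did not overlap, 4 called genes of opposite changes, 4 with the larger change in the Camk2a model, up to 2 called members of each list, and 4 shared changes (1 of them is not reported here), without Gm-number and Rik names and X, Y and mitochondrial genes. Alternatives were leaving out each library, another pseudocount (0.1), other filters (none, FPKM 5), 2 scalings (by median ratio, by quantiles), a fit with no trend, robust moderation, the spread within each table, and the replicate number as a block.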

Additional observations from a re-analysis of the deposited data

Results flagged for a closer look

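The change differed between the Nex and the Camk2a model by limma's test of the difference itself for each of the following named genes, and the log2 differences, Nex minus Camk2a, are given here. They were 2.76 for Card10, 2.37 for Mfap4, 2.15 for Ces5a, 1.94 for Fam114a1, 1.93 for Lgals7, 1.92 for Parvg, 1.78 for Smoc2 and 1.78 for Tac2. They were 1.71 for Adcyap1, 1.56 for Htr2a, 1.41 for Serpina3n, 1.14 for Cpne7, 1.13 for Cited2, 1.08 for Fibcd1, 0.96 for Net1, 0.66 for Kcnj16 and 0.57 for Scn3b. Below 0 they were -1.25 for Kcnip2, -1.21 for Dlk2, -1.20 for Cldn5, -1.04 for Trappc6a, -0.91 for Frat2, -0.91 for Meis2, -0.83 for Sox10, -0.82 for Hapln4, -0.80 for Mfsd12, -0.79 for Hdac7 and -0.65 for Iglon5. No group held 4 or more libraries, so single libraries were not tested as outliers.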

How the results depend on the processing

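The counts of called differences, 39 positive and 17 negative, were 24 and 10 with a pseudocount of 0.1, 229 and 49 with no filter, 4 and 3 with a filter of FPKM 5 (6040 genes tested, which leaves out called genes of lower level), and 75 and 68 with the spread estimated within each table. With 1 library left out they ranged from 12 to 48 and from 1 to 48. By library the counts were 28 and 4 without Nex_Ctrl replicate 1, 19 and 6 without Nex_Ctrl replicate 2, 26 and 5 without Nex_Ctrl replicate 3, 24 and 3 without Nex_cKO replicate 1, 48 and 48 without Nex_cKO replicate 2, 30 and 10 without Camk2a_Ctrl replicate 2, and 28 and 34 without Camk2a_cKO replicate 1. Rescaling by the median ratio (42 and 15), quantile normalization (48 and 16), no intensity trend (42 and 14), robust moderation (39 and 19) and, chosen after seeing the data, summing the rows of a name (40 and 20) stayed within 1.5 times. Higher genes in the Nex model, 252, numbered 683 with no filter, 65 with a filter of FPKM 5 and 145 to 307 with 1 library left out. Lower genes, 388, numbered 242 with a filter of FPKM 5, 231 with rescaling by the median ratio, 227 with quantile normalization and 83 to 589 with 1 library left out. The 1 higher gene of the Camk2a model numbered 0 with no filter, a filter of FPKM 5 or quantile normalization, 2 with no trend and 0 to 50 with 1 library left out, and the 0 lower genes 0 to 11. Fewer genes tested or fewer libraries are part of these settings, and the cause of the other shifts was not tested. No named difference reversed.

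With the replicate number as a block, 25 positive and 4 negative differences were called, 27 of the 56 among them, 189 genes were lower in the Nex model, and 8 were higher and 3 lower in the Camk2a model. Deviations of same-numbered libraries correlated at 0.024, -0.152 and -0.123 in the Nex and 0.102 in the Camk2a model. With 2 or 3 libraries per group, such values cannot decide whether the numbers pair the libraries. The call was lost with the block for Cpne7, Fibcd1, Kcnj16, Scn3b, Cldn5, Sox10, Hapln4, Trappc6a, Frat2, Hdac7, Iglon5 and Mfsd12. Of the other genes described, Glp2r, Crispld1, Racgap1, Tns4, Id3, Ina and Prkca lost it too. Depth is unknown for the Nex libraries, and arms of 2 libraries limit the Camk2a changes (median SE 0.12).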

Other observations

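Of the 56 genes called different between the models, 8 lay on chromosome 15, which holds 4.03% of the 10116 genes (408). They were Card10, Parvg, Acvrl1 and Racgap1 with a positive difference and Sox10, Ccdc184, Hdac7 and Dnajc21 with a negative one. The count was seen after the chromosomes had been compared and was not tested.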
